A study of Mus musculus with 35 samples.

Results

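Border-associated macrophages and monocytes carry CD45, as microglia do, and can therefore be present in cells captured by CD45 from whole brain. The genes described here were 10 markers of these cells, taken from the raw counts by name with earlier results of these data known: 8 border macrophage genes (Mrc1, Pf4, F13a1, Cd163, Lyve1, Ms4a7, Cbr2 and Stab1) and 2 monocyte genes (Ccr2 and Ly6c2), out of 55401 genes in the counts. All 10 passed the filter on low counts, which left 17612 genes for testing. The question was whether the border macrophage genes and the monocyte genes moved in opposite ways as the brain matured.

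The mRNA was sequenced from CD45-immunopanned microglia of wild-type C57BL/6 mice, with 1 library per mouse. The ages were postnatal day 6 (P6; 4 females and 6 males), postnatal day 15 (P15; 6 females and 6 males) and 8 weeks (6 females and 6 males). A further P6 female was left out, following the study's own removal of an outlier seen in multidimensional scaling. That mouse, female 6, lay below all other P6 mice for 9 of the 10 genes, with Ly6c2 as the exception. Libraries held 23316107 to 38965078 assigned fragments, so that 3 counts corresponded to 0.0770 to 0.129 CPM (counts scaled to library size). The meninges and blood clots were taken off by hand before the tissue was dissociated. Panning for CD45 does not itself separate microglia from macrophages of the brain's borders or from blood leukocytes, and the libraries are averages over all captured cells. Fewer cells of a type and less RNA per cell cannot be told apart in such data.

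Border-associated macrophages live in the meninges, the perivascular spaces and the choroid plexus, where they take up material from fluid and blood through scavenger and lectin receptors. Most of them, like microglia, descend from embryonic precursors, and some of these populations are later replenished from the blood. Classical monocytes leave the bone marrow with the chemokine receptor Ccr2 and carry the surface antigen Ly6C, and both are lost or lowered as the cells become macrophages. Microglia lack most border macrophage markers once mature, but immature microglia share some of them, so none of the 8 genes is exclusive to one cell.

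The sequences upstream of 3 of the genes are shown because they carry a motif of the myeloid ETS type (AGGAAGT, bound by factors such as PU.1; capitals, either strand), and because 2 of these genes fell and 1 rose with age. They are RefSeq sequences on GRCm38.p6, written 5′ to 3′ on the gene's strand: the Mrc1 one covers chr2:14229164-14229391, the Pf4 one chr5:90772185-90772434 and the Ly6c2 one chr15:75111972-75112221.
Mrc1: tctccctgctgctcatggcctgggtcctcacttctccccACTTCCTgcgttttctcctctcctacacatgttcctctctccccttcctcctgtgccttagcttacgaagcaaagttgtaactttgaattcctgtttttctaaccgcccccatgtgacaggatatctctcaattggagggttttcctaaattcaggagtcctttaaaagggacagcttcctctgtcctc
Pf4: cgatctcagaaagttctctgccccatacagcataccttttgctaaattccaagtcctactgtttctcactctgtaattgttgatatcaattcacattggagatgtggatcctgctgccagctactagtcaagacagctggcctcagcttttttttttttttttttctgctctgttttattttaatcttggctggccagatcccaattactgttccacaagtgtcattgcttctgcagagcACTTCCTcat
Ly6c2: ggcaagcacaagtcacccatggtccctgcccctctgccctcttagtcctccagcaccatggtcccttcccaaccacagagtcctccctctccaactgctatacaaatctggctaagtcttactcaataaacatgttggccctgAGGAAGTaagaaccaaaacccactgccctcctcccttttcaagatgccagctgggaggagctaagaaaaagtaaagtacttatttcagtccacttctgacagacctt
The motif was found in the 250 bases before the RefSeq start of 3 of the 9 genes that had an entry, of which 233 for Ccr2, 93 for Cbr2 and 22 for Mrc1 lie inside the GENCODE gene (the 22 are not printed), against 7.69% of 32851 upstream windows of the same length. Mrc1 also hosts a microRNA, miR-511, whose hairpin lies in intron 5 of Mrc1 on the same strand (chr2:14261003-14261081). The mature 3′ arm is shown with its seed, bases 2 to 8, in capitals.
mmu-miR-511-3p: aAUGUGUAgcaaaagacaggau
The hairpin overlaps no Mrc1 exon, and its row held 40 counts over all 35 mice, with at most 9 in a mouse, so the values of Mrc1 are those of the messenger RNA.

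Every one of the 8 border macrophage genes was lower at 8 weeks than at P15, and both monocyte genes were higher. In males alone 4 of the 8 passed this comparison, without Mrc1 (−0.52, adjusted p = 0.0835), F13a1 (−0.44, adjusted p = 0.106), Cd163 (−0.43, adjusted p = 0.119) and Stab1 (−0.35, adjusted p = 0.0717), and in females alone 7 passed, without Stab1 (−0.23, adjusted p = 0.292). From P6 to P15 there was no such division: 4 border macrophage genes rose, 3 fell and F13a1 did not pass the test, while both monocyte genes rose. Over the whole interval from P6 to 8 weeks, 4 border macrophage genes fell, 1 rose and 3 did not pass, and the monocyte genes rose more than 6-fold. The counts use a Benjamini-Hochberg adjusted p below 0.05 over all tested genes in edgeR's quasi-likelihood test, averaged over both sexes. All 3 comparisons draw on the same mice, so that each age enters 2 of them.

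**Figure D1:**
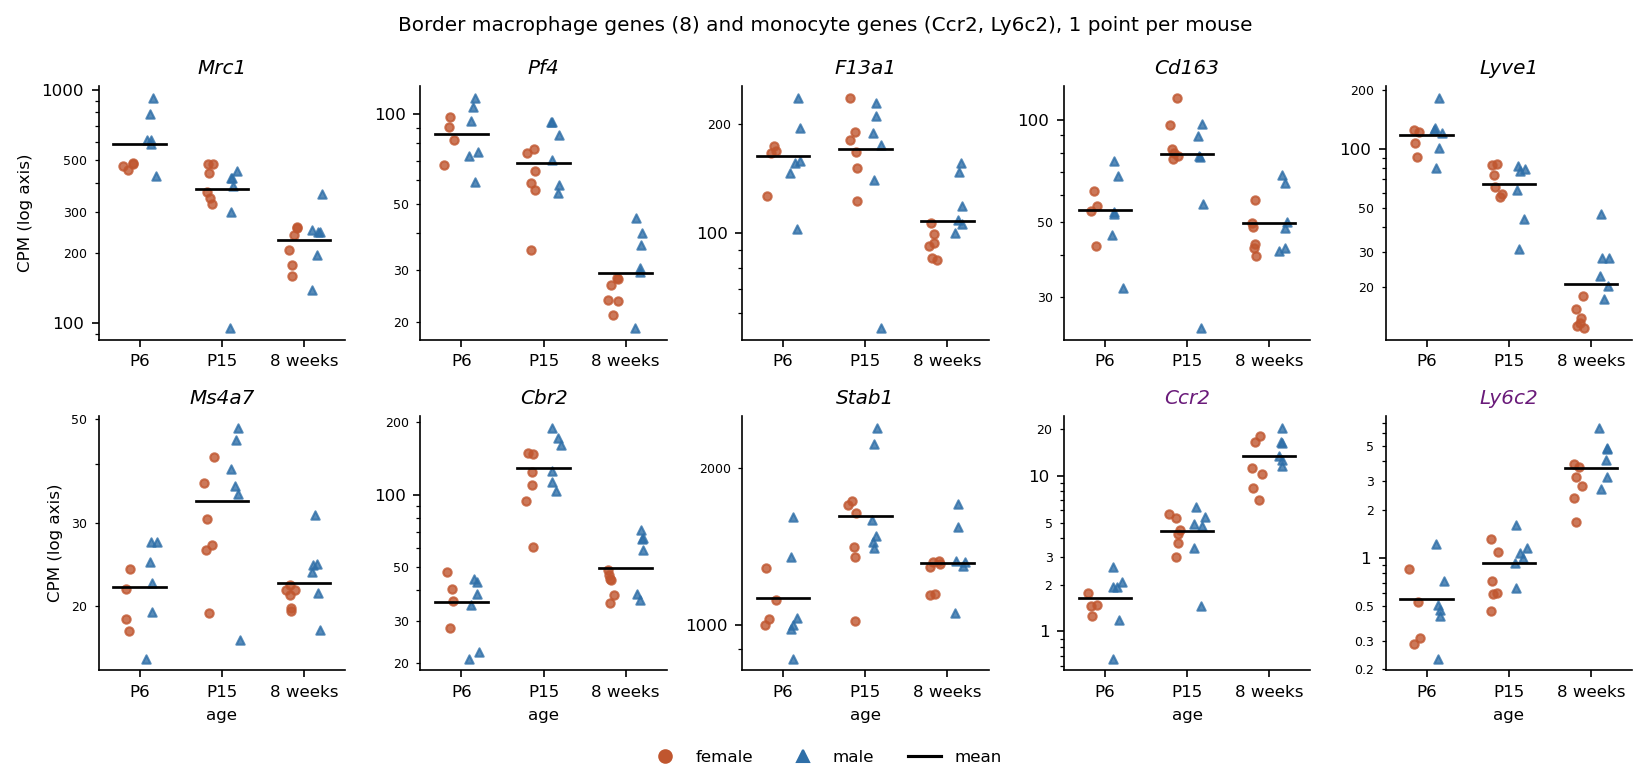
Level of each gene in each of 34 mice, in CPM on a log axis, by age; orange circles are females, blue triangles are males and lines are means over both sexes. The 2 monocyte genes (purple titles) step up at each age, while Mrc1, Pf4 and Lyve1 step down and Cbr2, Ms4a7, Cd163, F13a1 and Stab1 have their highest mean at P15.

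Of the 4 endocytic receptors, Mrc1 and Lyve1 fell at both steps, whereas Cd163 and Stab1 rose to P15 and then fell, over both sexes. Taken alone, females did not pass for the fall of Mrc1 to P15 (−0.22, adjusted p = 0.518, against −0.94 in males, adjusted p = 0.00163) and males did not pass for the rise of Cd163 (0.37, adjusted p = 0.155). Mrc1 (chr2:14229392-14332057), the mannose receptor, ranged from 428 to 927 CPM at P6 with a median of 535 (n = 10 mice), from 95.2 to 483 CPM at P15 with a median of 401 (n = 12) and from 138 to 358 CPM at 8 weeks with a median of 242 (n = 12). Every 8-week mouse was below every P6 mouse, and the low end at P15 was male 1, with the next lowest, male 4, at 299 CPM. The log2 fold change was −0.58 ± 0.18 (SE) from P6 to P15 (adjusted p = 0.00575), −0.72 ± 0.17 from P15 to 8 weeks (adjusted p = 0.000889) and −1.29 ± 0.18 from P6 to 8 weeks (adjusted p = 1.1e-07), a 2.45-fold fall.

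Lyve1 (chr7:110850607-110863239), the hyaluronan receptor that marks lymphatic vessels and a perivascular subset of macrophages, had the steepest fall of the 10 genes. Its level was 79.8 to 182 CPM at P6 (median 121), 31.2 to 83.8 CPM at P15 (median 68.6) and 12.3 to 46.6 CPM at 8 weeks (median 17.5). P6 and 8-week mice did not overlap, and P15 mice reached into both neighbouring ages. The log2 fold changes were −0.82 ± 0.16 (adjusted p = 4.43e-05), −1.75 ± 0.16 (adjusted p = 1.14e-10) and −2.57 ± 0.16 (adjusted p = 4.1e-15) for P15 against P6, 8 weeks against P15 and 8 weeks against P6, the last a 5.95-fold fall.

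Cd163 (chr6:124304656-124330527), the scavenger receptor for haemoglobin-haptoglobin complexes, took another course. It was 31.9 to 75.6 CPM at P6 (median 53.7), 24.4 to 116 CPM at P15 (median 79.2) and 39.8 to 68.8 CPM at 8 weeks (median 48.3), so that all 3 ages overlapped. It rose to P15 (log2 fold change 0.55 ± 0.16, adjusted p = 0.00449) and fell again to 8 weeks (−0.67 ± 0.15, adjusted p = 0.000635), with −0.12 ± 0.16 between P6 and 8 weeks (adjusted p = 0.491).

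Stab1 (chr14:31139013-31168641), a scavenger receptor of macrophages and sinusoidal endothelium, rose and fell within a narrow range. Its level ran from 862 to 1607 CPM at P6 (median 1028), from 1016 to 2382 CPM at P15 (median 1533) and from 1055 to 1703 CPM at 8 weeks (median 1315). It rose to P15 (0.52 ± 0.12, adjusted p = 0.00029) and fell to 8 weeks (−0.29 ± 0.11, adjusted p = 0.0278), and the 0.23 ± 0.12 between P6 and 8 weeks did not pass (adjusted p = 0.0754). Single mice decided both of the later calls: without 8-week male 1 the fall did not pass (adjusted p = 0.053), and without that mouse or P6 male 5 the difference between P6 and 8 weeks did. Exons of Stab1 overlap Nt5dc2 on the opposite strand, which had 69927 counts over all 35 mice against 1476387 for Stab1; the counting used strand.

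Among the secreted and enzymatic products, Pf4 fell at both steps and Cbr2 peaked at P15. Pf4 (chr5:90772435-90773383), a CXC chemokine best known from platelets, ranged from 59.3 to 114 CPM at P6 (median 86.3), from 35 to 94.3 CPM at P15 (median 67.4) and from 19.1 to 44.7 CPM at 8 weeks (median 28.1). The P6 and P15 mice overlapped over most of their range, whereas no 8-week mouse reached a P6 mouse. Its fall to P15 was small (−0.33 ± 0.14, adjusted p = 0.0364) and did not pass when any of 9 single mice was left out (−0.29, adjusted p = 0.0726 without P15 male 1), nor in females (−0.48, adjusted p = 0.0551) or males (−0.19, adjusted p = 0.399) alone. The falls to 8 weeks from P15 (−1.23 ± 0.13, adjusted p = 9.61e-09) and from P6 (−1.56 ± 0.14, adjusted p = 1.47e-11) were larger.

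Cbr2 (chr11:120729489-120732114), a carbonyl reductase, was 20.9 to 47.9 CPM at P6 (median 37.4), 60.6 to 189 CPM at P15 (median 125) and 35.5 to 71 CPM at 8 weeks (median 45.4). It was the only one of the 10 genes whose P6 and P15 mice did not overlap. It rose 3.55-fold to P15 (1.83 ± 0.17, adjusted p = 4.94e-11), fell 2.61-fold to 8 weeks (−1.38 ± 0.15, adjusted p = 1.01e-08) and remained above P6 (0.44 ± 0.16, adjusted p = 0.0129), a difference that did not pass without P6 female 3 (adjusted p = 0.0616) or in females alone (0.17, adjusted p = 0.547). Of its 100-base transcript windows, 5.37% also occur in another gene, and Gm11771 was the gene that shared most. How many of its fragments could not be placed was not measured.

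F13a1 (chr13:36867178-37050244), the A subunit of coagulation factor XIII, ranged from 103 to 237 CPM at P6 (median 163), from 54.6 to 237 CPM at P15 (median 178) and from 84.3 to 156 CPM at 8 weeks (median 103). Its log2 fold change to P15 was 0.07 ± 0.16 (adjusted p = 0.723), and it fell from P15 to 8 weeks (−0.67 ± 0.15, adjusted p = 0.000597) and from P6 to 8 weeks (−0.60 ± 0.16, adjusted p = 0.00116), the latter not in males alone (−0.43, adjusted p = 0.0762). Ms4a7 (chr19:11321039-11336146), a tetraspan membrane protein enriched in border macrophages over microglia, was 15.5 to 27.4 CPM at P6 (median 22.1), 17 to 47.8 CPM at P15 (median 35.2) and 17.8 to 31.2 CPM at 8 weeks (median 21.6). The P6 and 8-week mice of Ms4a7 overlapped over most of their range. It rose to P15 (0.62 ± 0.14, adjusted p = 0.000278) and fell by 0.57 ± 0.13 to 8 weeks (adjusted p = 0.00058), with 0.05 ± 0.14 between P6 and 8 weeks (adjusted p = 0.772).

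The monocyte genes were low throughout and rose at each step, although the early rise of Ly6c2 did not pass in females alone (0.66, adjusted p = 0.15) or when scaled to leukocyte genes (0.42, adjusted p = 0.199). Ccr2 (chr9:124101950-124113557), the receptor that brings monocytes out of the marrow, was 0.670 to 2.6 CPM at P6 (median 1.63), 1.45 to 6.33 CPM at P15 (median 4.62) and 6.96 to 20.3 CPM at 8 weeks (median 12.9). In counts this was 27 to 100 at P6, 43 to 224 at P15 and 254 to 595 at 8 weeks. Every 8-week mouse was above every younger mouse. Ccr2 rose by 1.46 ± 0.22 to P15 (adjusted p = 1.28e-06), by 1.60 ± 0.20 from there to 8 weeks (adjusted p = 1.34e-07) and by 3.05 ± 0.24 from P6 to 8 weeks (adjusted p = 4.54e-13), an 8.3-fold rise.

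Ly6c2 (chr15:75108158-75111970), one of the genes for the Ly6C antigen, was 0.234 to 1.22 CPM at P6 (median 0.489), 0.462 to 1.59 CPM at P15 (median 0.964) and 1.68 to 6.49 CPM at 8 weeks (median 3.47). In counts it held 8 to 47 at P6, 14 to 51 at P15 and 59 to 173 at 8 weeks, so that counting error is large in the young mice. P6 and P15 mice overlapped, and no 8-week mouse overlapped either. Its log2 fold change was 0.74 ± 0.25 to P15 (adjusted p = 0.0118), 1.96 ± 0.23 from P15 to 8 weeks (adjusted p = 3.92e-08) and 2.7 ± 0.26 from P6 to 8 weeks (adjusted p = 7.63e-11), a 6.5-fold rise.

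Both monocyte genes share some sequence with another gene. Windows of 100 bases shared in this way made up 0.790% of Ccr2 and 5.81% of Ly6c2, and Ly6c1 was the gene that shared most with Ly6c2. How many fragments could not be placed was not measured. Ly6c1, which is also made by brain endothelium, averaged 1.40 ± 0.81 CPM (SD) over the 10 mice of P6 and 17.1 ± 9.47 CPM over the 12 mice of 8 weeks, a rise (log2 fold change 3.57 ± 0.39, adjusted p = 1.32e-09). The deviations of Ly6c2 and Ly6c1 from the mean of each age and sex had a Pearson r of −0.20 over 34 mice, given as a description. The part of Ly6c1 in the rise of Ly6c2 was not tested.

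**Figure D2:**
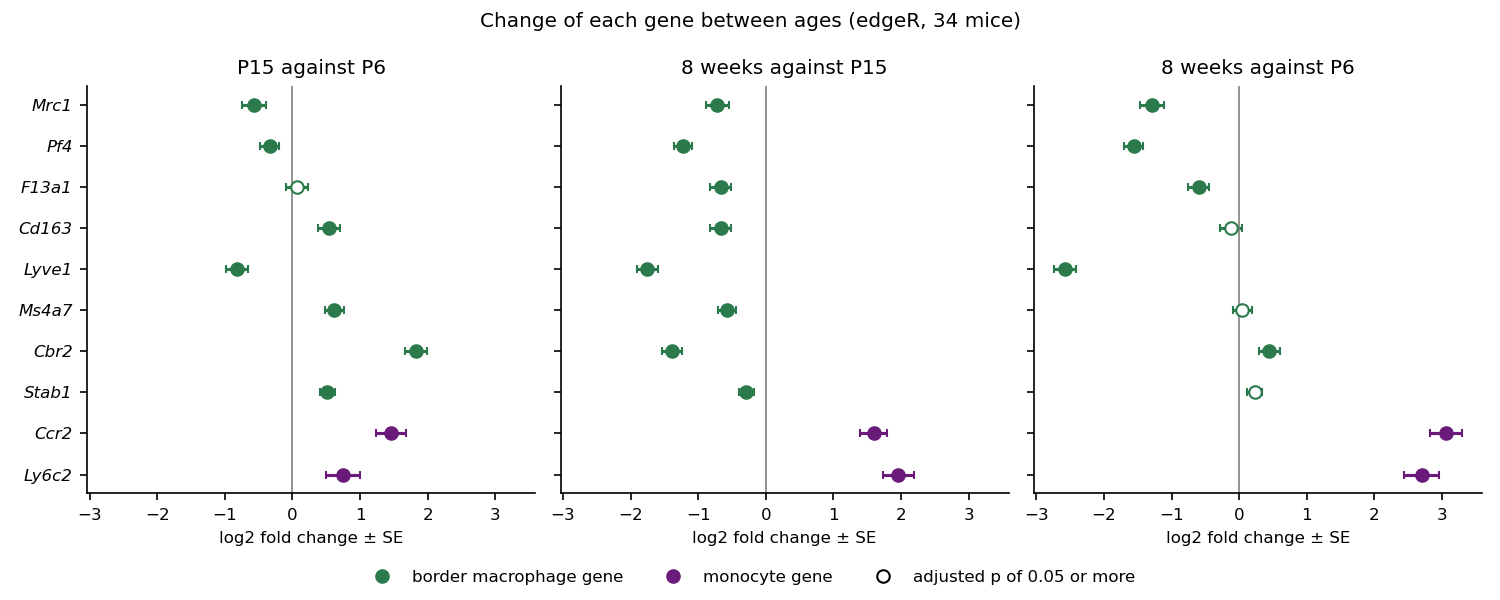
Log2 fold change of each gene with its SE in the 3 comparisons of ages (edgeR, 34 mice); green points are border macrophage genes, purple points monocyte genes, and open points did not pass an adjusted p of 0.05. In the middle panel all 8 green points lie below 0 and both purple points above 1.5.

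These counts were read against all 17612 genes tested. From P6 to P15, 6 of the 10 genes rose and 3 fell, where 30.4% of all genes rose and 31.4% fell. From P15 to 8 weeks, 8 of 10 fell, all of them border macrophage genes, against 23.9% of all genes, and both monocyte genes rose against 24%. From P6 to 8 weeks, 3 of 10 rose against 37.8% and 4 of 10 fell against 36.6%, which is close to the background. The median log2 fold change of the border macrophage genes was 0.29, −0.69 and −0.36 in the 3 comparisons in that order, beside −0.01, 0.02 and 0.04 over all genes.

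A test for a change beyond 2-fold (glmTreat) called fewer. It called Cbr2 alone between P6 and P15 (9.73% of all genes), Lyve1, Cbr2, Ccr2 and Ly6c2 between P15 and 8 weeks (4.26%) and Pf4, Lyve1, Ccr2 and Ly6c2 between P6 and 8 weeks (23.8%). The ages did not overlap for 1 gene, 2 genes and 5 genes in these comparisons, against 13%, 3.37% and 29.6% of all genes. In the comparison of 8 weeks with P15, the 2 genes without overlap were the monocyte genes; in that of 8 weeks with P6 they were Mrc1, Pf4, Lyve1, Ccr2 and Ly6c2.

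The direction of several border macrophage genes between P6 and 8 weeks depended on what the libraries were scaled to. The values above were scaled by the trimmed mean of M values (TMM), under which the median log2 change of all genes between P6 and 8 weeks was 0.02. Scaled instead to 8 genes of all leukocytes, among them Ptprc, which encodes CD45, the median of all genes shifted by −0.55 between P6 and 8 weeks. Under that scaling 55.9% of all genes fell and 17.7% rose. The 8 border macrophage genes had negative changes, 7 of them past the threshold, including Cd163 (−0.67, adjusted p = 6.75e-05), Ms4a7 (−0.51, adjusted p = 1e-05) and Stab1 (−0.32, adjusted p = 3.18e-05). Cbr2 did not pass (−0.10, adjusted p = 0.354). Cbr2, Stab1 and Ms4a7 lay above the median of all genes under this scaling (−0.52), as they did under TMM. Ccr2 and Ly6c2 kept rises of 2.49 and 2.11. Some of the leukocyte genes themselves rose under TMM, as given further on. From P6 to P15 the same scaling shifted all genes by −0.30 and left Ly6c2 at 0.42 (adjusted p = 0.199) and Cd163 at 0.21 (adjusted p = 0.189), neither of which passed, while F13a1 fell by 0.28 (adjusted p = 0.039).

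**Figure D3:**
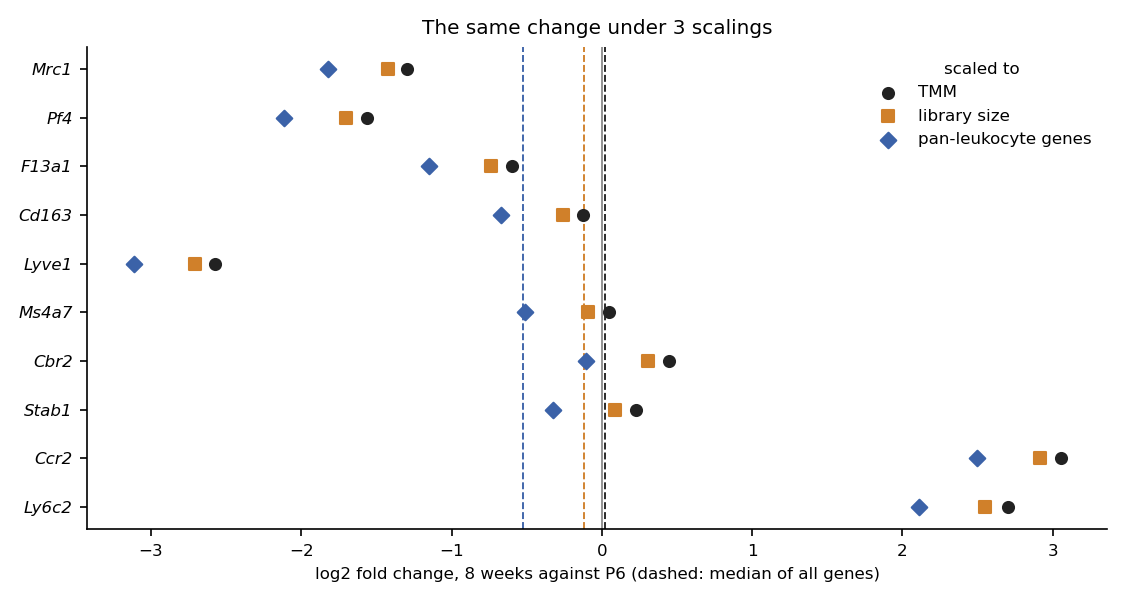
Log2 fold change of each gene between P6 and 8 weeks under 3 scalings (symbols), with the median of all genes under each scaling as a dashed line of the same colour. Ms4a7, Cbr2 and Stab1 lie on different sides of 0 under TMM and under the leukocyte genes, whereas Lyve1, Ccr2 and Ly6c2 keep their sign by a wide margin.

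Transcript abundance per length put the border macrophage genes far above the monocyte genes. In RPKM (CPM divided by exon length in kilobases), the order at P6 was Pf4 (119 ± 24.5, SD, n = 10), Stab1 (109 ± 21.7), Mrc1 (91.7 ± 25.4), Lyve1 (40.4 ± 9.48), Cbr2 (26.9 ± 7.02), F13a1 (24.3 ± 5.44), Cd163 (9.93 ± 2.3), Ms4a7 (4.92 ± 0.91), Ccr2 (0.242 ± 0.080) and Ly6c2 (0.203 ± 0.109). The neighbours Pf4 and Stab1, Stab1 and Mrc1, Cbr2 and F13a1, and Ccr2 and Ly6c2 each lay within 1 SD of each other, whereas Pf4 and Mrc1 did not. At P15 the order was Stab1 (157 ± 36.3, n = 12), Cbr2 (97.2 ± 27.3), Pf4 (94.9 ± 24.4), Mrc1 (58.9 ± 16.7), F13a1 (25.3 ± 7.39), Lyve1 (22.7 ± 5.69), Cd163 (14.6 ± 4.15), Ms4a7 (7.5 ± 2.17), Ccr2 (0.652 ± 0.20) and Ly6c2 (0.339 ± 0.123), where Cbr2 and Pf4, and F13a1 and Lyve1, were within 1 SD. At 8 weeks Stab1 led with 128 ± 16.8 RPKM (n = 12), followed by Pf4 (40.6 ± 10.6), Cbr2 (37.3 ± 9.47) and Mrc1 (35.7 ± 9.1), which lay within 1 SD of each other, and by F13a1 (16.1 ± 3.37), Cd163 (9.1 ± 1.75) and Lyve1 (7.08 ± 3.38). Ccr2 then stood at 1.99 ± 0.60 and Ly6c2 at 1.33 ± 0.47 RPKM, still below Ms4a7 at 5.03 ± 0.77. Cd163 and Ms4a7 both lay within the SD of Lyve1, so the place of Lyve1 between them is not settled. Exon lengths were those of GENCODE M21.

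None of the 10 genes passed edgeR's test between males and females at any age, and DESeq2 called 1 of them, Lyve1 at 8 weeks. In edgeR the test called 0.114% of all genes at 8 weeks, 0.0681% at P15 and 0.0511% at P6. The test of whether the sexes differed in their change with age called 0% of all genes, both from P6 to P15 and from P6 to 8 weeks, with 0 and 1 of the 10 genes at an unadjusted p below 0.05, against 20.4% and 5.1% of all genes. Between the sexes, 0 of the 10 genes had an unadjusted p below 0.05 at P6 (7.1% of all genes) and at P15 (18.2%), and 2, Pf4 and Lyve1, at 8 weeks (2.94%). Lyve1 came closest: at 8 weeks it was 12.3 to 17.9 CPM in females (median 13.5, n = 6) and 17.2 to 46.6 CPM in males (median 25.3, n = 6), which overlapped by 1 mouse of each sex. Its log2 fold change of 0.93 ± 0.22 for males over females had an adjusted p of 0.0876 in edgeR and of 0.0151 in DESeq2. The male-to-female difference of Lyve1 at 8 weeks exceeded that at P6 by 0.79 ± 0.32, with an adjusted p of 0.858. All 10 genes had higher fitted values in 8-week males than in females, from 0.13 for Stab1 to 0.93 for Lyve1, beside a median of 0.01 over all genes. The share of all genes higher in males was not counted, and genes that vary together between mice are not separate observations.

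Between mice of 1 age, part of the genes varied together under TMM. Over the 45 pairs of genes at 3 ages (135 relations, permutation tests, Benjamini-Hochberg adjusted over all 135), 38 Pearson correlations of log2 CPM passed an adjusted p of 0.05, and all 38 were positive. Pairs of all tested genes were not counted, and mice share depth and scaling across genes, so the count does not set the 10 genes apart from others. Scaled to leukocyte genes, 23 were positive and 3, all at P15, were negative, so the sign of a pair at P15 depended on the scaling. Under that scaling the median r between border macrophage genes was 0.05 at P15 (7 pairs positive and 2 negative past the threshold), 0.27 at 8 weeks and 0.62 at P6. Under TMM, 8 of the 28 pairs of border macrophage genes passed at 8 weeks (median r = 0.46, n = 12), 13 at P15 (median 0.64, n = 12) and 13 at P6 (median 0.73, n = 10), the last becoming 28 with P6 female 6 included. In order of age, by Spearman's rho the counts were 7, 14 and 4. The highest was Pf4 with Cbr2 at P15, with r = 0.98 and rho = 0.93 (n = 12, permutation p = 1e-05, the smallest the permutations can give; adjusted p = 0.00045), and r = 0.93 without the 2 mice farthest from the Pf4 median. Leaving out the 2 farthest mice in this way lowered the median r of the border pairs to 0.48 at P6 and 0.57 at P15, and gave 0.49 at 8 weeks.

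From mouse to mouse of 1 age, no border macrophage gene had a negative correlation with Ccr2 past the threshold under TMM. At P15 its Pearson r was 0.89 with Mrc1 (rho = 0.58, permutation p = 0.00235, adjusted p = 0.0142, and 0.152 for rho), and at P6 it was 0.77 with Lyve1 (rho = 0.92, permutation p = 0.0127, adjusted p = 0.045). The P15 relation rested on few mice, since r fell to 0.48 without the 2 farthest, one of them male 1, whereas the P6 relation kept r = 0.82. The 8 border genes had a median r with Ccr2 of 0.37 at 8 weeks (0 past the threshold), 0.62 at P15 (2 past it) and 0.64 at P6 (1 past it, and 6 with P6 female 6 included). Scaled to leukocyte genes, 3 of the 8 were positive and 1 negative past the threshold at P15. For Mrc1 and Ccr2, which moved in opposite ways with age, r was 0.61 at P6 (permutation p = 0.0629, adjusted p = 0.135), where rho was 0.81 and passed (permutation p = 0.00698, adjusted p = 0.0357). At 8 weeks r was 0.59 (permutation p = 0.0416, adjusted p = 0.0985) and rho 0.47 (permutation p = 0.127, adjusted p = 0.262), and neither passed.

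**Figure D4:**
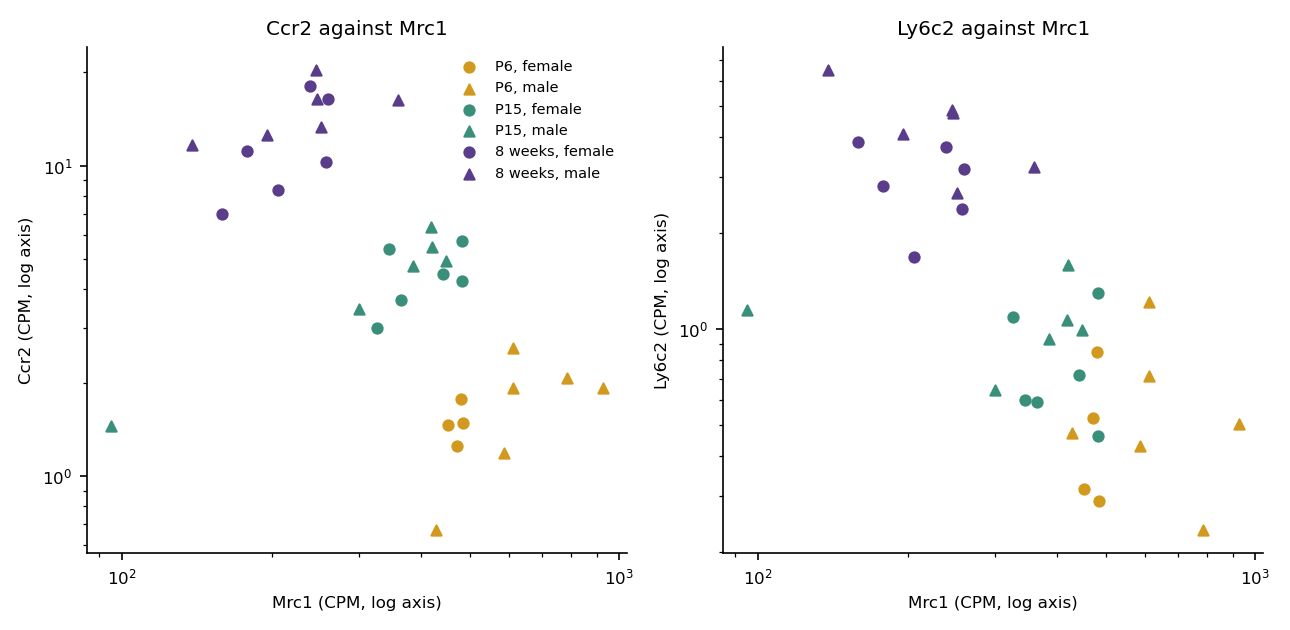
Ccr2 (left) and Ly6c2 (right) against Mrc1 in each of 34 mice, in CPM on log axes; colours are ages, circles females and triangles males. The ages run from lower right to upper left in both panels, apart from P15 male 1 at 95.2 CPM of Mrc1, far to the left of the other P15 mice.

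Ly6c2 had weaker relations. Its median r with the 8 border genes was 0.35 at 8 weeks, 0.03 at P15 and −0.26 at P6, and 1 of these 24 relations passed, that with Stab1 at 8 weeks (r = 0.70, permutation p = 0.012, adjusted p = 0.0449). By Spearman's rho it did not pass (rho = 0.59, permutation p = 0.0455, adjusted p = 0.146). Scaled to leukocyte genes its r was 0.69, close to that under TMM, and 0 of the 24 passed. With Ccr2 it had r = 0.39 at 8 weeks, 0.02 at P15 and 0.32 at P6, none of which passed (adjusted p = 0.334, 0.957 and 0.464, permutation tests). Without the 2 farthest mice these became 0.50, 0.66 and 0.079. The low counts of Ly6c2 at P6 and P15 limit what a correlation can show.

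The border macrophage genes were unequally alike when each mouse was compared with the mean of its own age and sex (34 mice, given as a description because mice share library depth and scaling). F13a1 and Cd163 had r = 0.94, Mrc1 and Cd163 0.90, and Cd163 and Lyve1 0.85. F13a1 also had 0.83 with Ms4a7. Pf4 had 0.87 with Cbr2 and 0.83 with Ms4a7, but 0.31 with Mrc1, and Mrc1 had 0.28 with Cbr2. Ccr2 had 0.77 with Mrc1 and 0.76 with Cd163, against 0.16 with Pf4, 0.16 with Cbr2 and 0.19 with Ly6c2. P15 male 1, low for Ccr2, Mrc1 and Cd163, is among these mice. At P15 alone, leaving out the 2 farthest mice lowered r of Ccr2 from 0.89 to 0.48 with Mrc1 and from 0.86 to 0.33 with Cd163.

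**Figure D5:**
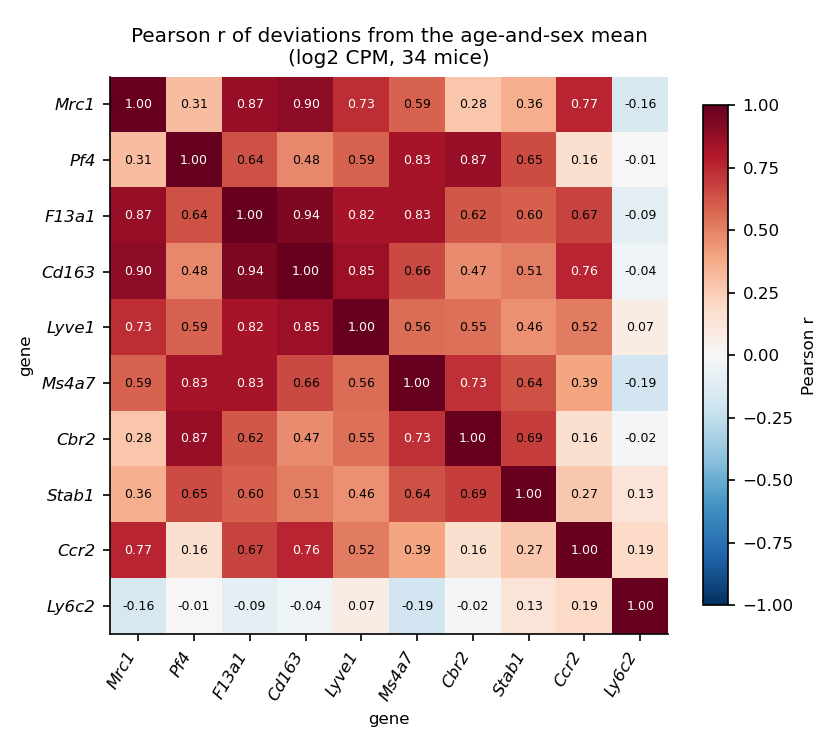
Pearson r between genes of their deviations from the mean of each age and sex (log2 CPM, 34 mice), from −1 (blue) to 1 (red). All pairs of border macrophage genes are above 0, from 0.28 for Mrc1 with Cbr2 to 0.94 for F13a1 with Cd163, and Ly6c2 lies between −0.19 and 0.19 with every other gene.

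By the same measure, the genes most like each of the 10 were taken from all tested genes, with no test. For F13a1 they were Dab2 (0.95), Cd163 and Dse (0.93), for Cd163 F13a1, Cybb (0.90) and Mrc1, and for Lyve1 Cd163, F13a1 and Ms4a6c (0.80). Mrc1 was most like Arhgef6, Rab14 and Trim30a (each 0.96), Pf4 like Smagp (0.91), Clec4n (0.88) and Cbr2, and Ms4a7 like Tnfrsf13b (0.91), Anxa7 (0.89) and Casp6 (0.89). Cbr2 was most like Alox5ap (0.92), Ctsh (0.91) and Gmfg (0.91), and Stab1 was like Ccdc88b and Myo1f (each 0.93). Ccr2 had Rnf150 (0.83), Ifi204 (0.82) and Gbp3 (0.81), and Ly6c2 had lower values, with Xdh (0.67), the haptoglobin gene Hp (0.64) and Asprv1 (0.63).

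P15 male 1 stood apart in part of the list. It was the lowest P15 mouse for Mrc1, F13a1 (54.6 CPM), Cd163 (24.4), Lyve1 (31.2), Ms4a7 (17) and Ccr2 (1.45), but not for Pf4 (54.6), Cbr2 (113), Stab1 (1405) or Ly6c2 (1.15). Without it, every call from P15 to 8 weeks held, with Mrc1 at −0.84, F13a1 at −0.79, Ms4a7 at −0.67, Ccr2 at 1.49 and Ly6c2 at 1.95.

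Other genes named for these cells gave a wider view. Of 28 other border macrophage genes, 27 were tested and Vsig4 was too low; from P15 to 8 weeks 13 of the 27 fell and 5 rose, against 23.9% and 24% of all genes. From P6 to 8 weeks 12 fell and 13 rose, against 36.6% and 37.8% of all genes. The median log2 fold change of the list was −0.43 from P15 to 8 weeks and 0.33 from P6 to 8 weeks. Between P6 and 8 weeks 12 of the 27 did not overlap, 7 of them lower and 5 higher, where 29.6% of all genes did not overlap. The lower ones were Igf1, a growth factor (−2.99 ± 0.18, adjusted p = 5.05e-16, the largest fall of the list), Fcna (−2.31), the folate receptor Folr2 (−1.72), Ccl24 (−1.48), the endocytic adaptor Dab2 (−1.39), Gas6 (−1.23) and the scavenger receptor Colec12 (−0.83). The higher ones included Lilra5 (1.88), Clec12a (1.33), Cp (1.10) and Ms4a6b (0.91). Some of these, Igf1 among them, are also expressed by microglia.

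Of 21 other monocyte genes, 17 rose and 2 fell from P15 to 8 weeks, with a median of 1.13, where 24% of all genes rose and 23.9% fell. The 8-week mice were unequal in part of the list, such as Hp (10.3 ± 8.11 CPM, SD, against 1.91 ± 1.02 at P15) and Chil3 (6.87 ± 5.79 against 1.38 ± 0.89). They were more alike in Cd209a (7.86 ± 1.65 against 2.90 ± 1.52). From P6 to P15 4 rose and 6 fell, no more than the 30.4% and 31.4% of all genes. From P6 to 8 weeks 12 rose and 2 fell, against 37.8% and 36.6% of all genes. P6 and 8-week mice did not overlap for 6 of the 21, 5 of them higher and 1 lower, a share close to the 29.6% of all genes. The higher ones included Cd209a (3.84 ± 0.30, adjusted p = 4.56e-13, the largest rise), Ly6a (3.73), Chil3 (3.31) and Hp (2.56), and the lower one was the proteoglycan Vcan (−2.93 ± 0.31, adjusted p = 4.47e-10, the largest fall). Both lists were named with earlier results known.

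The part of other cells in the results above was not tested, and the counts of their markers from P6 to 8 weeks are to be read against the 37.8% of all genes that rose and the 36.6% that fell. All 9 microglial genes rose from P6 to 8 weeks, led by Tmem119 (3.10 ± 0.15, adjusted p = 1.98e-18), with a summed level of 8351 to 15110 CPM at P6 and 23476 to 33296 CPM at 8 weeks. The labelled cell type was thus marked at every age. The sum of the 8 border macrophage genes was 1600 to 3215 CPM at P6, 1733 to 3490 CPM at P15 and 1536 to 2169.9 CPM at 8 weeks, and that of the monocyte genes lay between 1.14 and 3.82 CPM at P6 and between 10.02 and 25.2 CPM at 8 weeks. The border macrophage sum mostly followed Stab1, which averaged 1125 of 2189 CPM at P6, 1612 of 2535 CPM at P15 and 1315 of 1822 CPM at 8 weeks. Of 8 pan-leukocyte genes 4 rose, a share near that of all genes, led by Ptprc (1.58 ± 0.22, adjusted p = 1.59e-07), and none fell.

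Among blood cells, 3 of 7 tested neutrophil genes rose, again near the share of all genes, led by Retnlg (2.36 ± 0.31, adjusted p = 4.76e-08), although the median of that list was −0.30; its sum was 19 to 86.6 CPM at P6 and 31.1 to 205 CPM at 8 weeks, and Elane was too low to test. Of 7 lymphocyte genes 6 rose, led by Nkg7 (3.81 ± 0.38, adjusted p = 1.27e-10), and Cd79b fell (−0.30 ± 0.13, adjusted p = 0.0455), with a sum of 19.2 to 44.4 CPM at P6 and 25.4 to 79.6 CPM at 8 weeks. Endothelial genes rose in 5 of 7, led by Ly6c1, with a sum of 40.9 to 119 CPM at P6 and 118 to 309.7 CPM at 8 weeks.

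Genes of mural cells and fibroblasts, which lie beside border macrophages in the vessel wall and meninges, fell in 5 of 7, led by Col1a1 (−3.10 ± 0.23, adjusted p = 2.76e-13). Their sum was 146 to 1034 CPM at P6 and 91.4 to 528 CPM at 8 weeks. Of 9 genes of neurons and neural progenitors 7 fell, led by Dcx (−6.29 ± 0.46, adjusted p = 1.23e-13), and Snap25 rose (0.99 ± 0.32, adjusted p = 0.00613), with a sum of 900 to 2614 CPM at P6 and 124 to 378 CPM at 8 weeks. No gene of any of these lists was at 0 in every mouse.

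Between P15 and 8 weeks, where the border macrophage and monocyte genes divided, 24% of all genes rose and 23.9% fell, and the part of other cells in that division was not tested. Of the microglial genes 3 of 9 rose and 1 fell (median 0.14), and of the pan-leukocyte genes 1 of 8 rose and 0 fell (median 0.11), the 1 being Ptprc (1.07, adjusted p = 7.08e-05). Lymphocyte genes rose in 4 of 7 and fell in 1 (median 1.34), with Nkg7 at 2.52 (adjusted p = 1.15e-07), and neutrophil genes rose in 3 of 7 and fell in 4 (median −1.50). Endothelial genes rose in 3 of 7 and none fell (median 0.42). Mural and fibroblast genes fell in 3 of 7 and none rose (median −0.77), with Col1a1 at −2.30 (adjusted p = 7.66e-10), and neuronal genes fell in 8 of 9 and none rose (median −2.01).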

How the data were processed

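The submitters counted fragments per gene (fastp 0.20.0, STAR, featureCounts of Subread, counting by strand, GRCm38/mm10) and deposited raw counts for 35 mice; no normalized value was used. The annotation release is not given in the sources used here; names and exon lengths are from GENCODE M21, which named 55141 of 55401 identifiers. Members and lists were chosen with earlier results of these data known. Genes reaching 0.5 CPM in 5 or more mice were fitted over 34 mice with 6 age and sex means (edgeR 4.0.16 in R 4.3.3, TMM, robust quasi-likelihood; SE from the F statistic), and adjusted p-values cover all 17612 genes. The values per gene in CPM use TMM-scaled library sizes. The replicates are separate mice, so p-values measure the spread between mice. No 2 libraries of a group were copies (lowest chi-square per gene 12.7 over 85 pairs). Correlations used log2 CPM with a prior count of 2 and 100000 permutations, two-sided (SciPy 1.17.1). The fit was tested on simulated data. Alternatives were limma 3.58.1 (voom), DESeq2 1.42.0, other scalings, filters, samples and covariates, and leaving out each mouse. Named were all members, the largest rise and fall of each other list, genes of the 2 longer lists whose P6 and 8-week mice did not overlap, the 3 genes most like each member, and Ly6c1; some genes that this rule names are not reported here.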

Additional observations from a re-analysis of the deposited data

Results flagged for a closer look

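Each gene was checked for a single mouse far from the others of its age and sex, or of P6 as a whole, over 70 groups, where chance alone would mark about 1 in 20. It marked 3: F13a1 in P6 female 3 (127 CPM, the next being 167 CPM), Lyve1 in 8-week male 2 (46.6 CPM, the next being 28.1 CPM) and Lyve1 in P6 male 5 (182 CPM, the next being 127 CPM).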

How the results depend on the processing

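Of 1407 fold changes of single genes recomputed under the alternatives, 1360 kept both direction and side of the threshold, 30 lost their call, 5 gained one and 12 changed sign. Among the sign changes, F13a1 from P6 to P15 was −0.063 by library size and −0.28 by leukocyte genes, and −0.0041 to 0.16 when 1 mouse was left out; from P6 to 8 weeks, Ms4a7 was −0.094 by library size, −0.51 by leukocyte genes and −0.040 to 0.081 when 1 mouse was left out, Cbr2 was −0.10 and Stab1 −0.32 by leukocyte genes. Library size alone shifted the median of all genes by −0.14 over that interval. For the single mice the cause was not tested. The number that fell from P6 to 8 weeks became 7 by leukocyte genes, a scaling under which 55.9% of all genes fell. With a 2-fold threshold, 1 gene rose and 0 fell from P6 to P15, 2 fell from P15 to 8 weeks and 2 fell from P6 to 8 weeks. In females alone 1 gene fell from P6 to P15, and in males alone 4 fell from P15 to 8 weeks (the cause was not tested). Requiring 10 counts in every mouse removed Ly6c2 and left 1 gene rising from P15 to 8 weeks. DESeq2 called 1 gene between sexes at 8 weeks, Lyve1. Scaled to leukocyte genes, an alternative chosen after seeing the data, 23 of 135 correlations were positive and passed, against 38. With 1 mouse left out, the counts of genes that fell ranged from 2 to 3, 7 to 8 and 4 to 4 over P15 against P6, 8 weeks against P15 and 8 weeks against P6; Stab1 lost its call without 8-week male 1 (adjusted p = 0.053). With P6 female 6 included, the fall of Pf4 to P15 (−0.26, adjusted p = 0.128) and that of Stab1 to 8 weeks (−0.28, adjusted p = 0.0787) did not pass. The mouse numbers were not treated as pairs across ages. Of 32 same-numbered pairs, 13 had a correlation of deviations over 0.1 (median 0.08), against 44 of 160 different-numbered pairs (median −0.01). Of 34 mice, 10 correlated best with their own number. Whether mice of the same number share a factor was not tested. With the number as a replicate block, 1 call changed, Pf4 from P6 to P15 (−0.34, adjusted p = 0.075). Depth limits Ly6c2 most, with as few as 8 counts in a P6 mouse.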
